A study of Mus musculus with 6 samples.

Results

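Mitochondria in macrophages form a network that is joined and divided without pause, and 10 genes that carry out or steer this balance are described here. The genes are Mfn1, Mfn2, Opa1, Dnm1l, Fis1, Mff, Mief1, Mief2, Oma1 and Yme1l1, chosen as the rows of the deposited gene table with exactly these symbols, and all 10 were found among 35421 genes. RNA was sequenced from bone marrow-derived macrophages (BMDMs), grown from the femoral marrow of C57BL/6 mice with the macrophage growth factor M-CSF, as 3 untreated libraries (Ctrl) and 3 libraries taken 12 h after stimulation with zoledronic acid (ZA). ZA is a bisphosphonate drug against bone resorption that blocks an enzyme of the mevalonate pathway. No genetic change was made in either group, and the ZA concentration, the number of mice and whether libraries of a group came from separate animals are not given in the sources used here, so that p-values measure only the spread between these libraries. The study's methods describe its wild-type C57BL/6 mice as females obtained at 6 weeks of age, without tying them to these cultures.

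Fusion joins neighbouring mitochondria and mixes their contents, and fission cuts them into smaller units that can be moved or removed by mitophagy. Mitofusins 1 and 2 join the outer membranes and OPA1 joins the inner membranes and keeps cristae closed. DRP1, the product of Dnm1l, is a dynamin-like GTPase that adaptor proteins recruit from the cytosol to constrict the outer membrane. Much of this system is set by phosphorylation, recruitment and cleavage of the proteins, which mRNA levels do not measure.

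At 12 h the mRNA levels of the fusion and fission genes in ZA-treated BMDMs differed from Ctrl by less than the test could call. Among the 9800 genes with a mean of at least 1 FPKM (fragments per length of gene and per size of library), 0.367% had an adjusted p-value under 0.05 in limma with Benjamini-Hochberg adjustment, and none of the 10 fusion and fission genes did. At an unadjusted p under 0.05, 7.5% of the tested genes were higher in ZA and 4.85% were lower, against 0 and 0 of the 10. Their adjusted p-values ran from 0.537 to 0.9999. The mean was higher in ZA for 7 of them and lower for 3, which became 4 and 6 after median centring or quantile normalization of the libraries. The 10 genes had a median log2 fold change of 0.0029, beside 0.010 over all tested genes. The median absolute log2 fold change was 0.023, beside 0.041 over all tested genes.

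The size of change that these libraries leave possible was small. All fold changes here are differences of log2(FPKM + 1), which understates changes of genes with low FPKM. The 95% intervals of all 10 differences held 0, and the lowest and highest of their bounds were 0.913-fold and 1.16-fold. For 7 of the 10 genes the whole interval lay within 1.1-fold in either direction, as it did for 46.3% of all tested genes. These intervals are not adjusted for the number of genes, and in bulk RNA a change in the number of cells of a type cannot be told apart from a change of RNA per cell.

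The libraries held between 41230600 and 42155808 fragments, and the 10 genes between 276 and 3800 fragments in a library. All 8 macrophage markers were expressed, with a summed level between 23609 and 27519 FPKM in Ctrl and between 24498 and 28005 FPKM in ZA. Most of that sum was Lyz2, with 20470 to 24670 FPKM. The other macrophage markers ran from Mertk, with 23.04 to 24.59 FPKM, up to Cd68, with 1318 to 1351 FPKM. The 8 neutrophil and progenitor markers summed to between 32.5 and 47.5 FPKM in Ctrl and between 29.4 and 34.4 FPKM in ZA, with Ly6g at 0 in every library. The 5 fibroblast and stroma markers summed to between 17.9 and 31.7 FPKM in Ctrl and between 16.2 and 23.1 FPKM in ZA. The 5 osteoclast markers summed to between 40.3 and 46.9 FPKM in Ctrl and between 38.6 and 42.4 FPKM in ZA. Nearly all of this sum was Ctsk, with 25.86 to 29.08 FPKM, and Acp5, with 12.55 to 17.57 FPKM. Calcr, Dcstamp and Ocstamp reached at most 0.0062, 0.316 and 0.0248 FPKM in any library. The B cell, T cell and erythroid lists each stayed under 3 FPKM in every library. Any part of other cell types in the levels below was not tested.

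**Figure D1:**
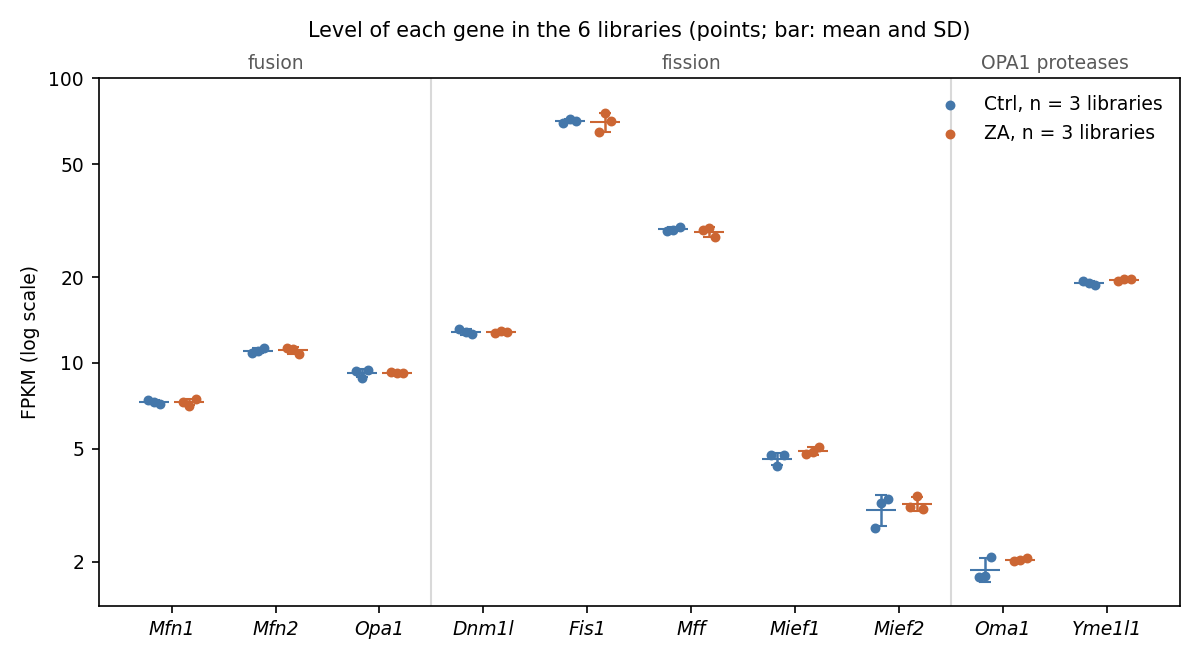
FPKM of each gene (log scale) in 3 Ctrl libraries (blue) and 3 ZA libraries (orange), with the mean and SD of each group as bars. The groups overlap for 8 genes, and for Mief1 and Yme1l1 the lowest ZA library lies above the highest Ctrl library. Of all tested genes, 18.1% have groups that do not overlap.

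Of the fusion genes, Mfn1 encodes mitofusin 1, a GTPase that tethers outer membranes of adjacent mitochondria. Mfn1 was measured at 7.40, 7.31 and 7.16 FPKM in Ctrl 1, 2 and 3 and at 7.31, 7.08 and 7.49 FPKM in ZA 1, 2 and 3. Both the lowest and the highest value were ZA libraries, with the Ctrl libraries between them. The log2 fold change of Mfn1 was 0.00007 (SE 0.035, 95% interval −0.081 to 0.081, adjusted p = 0.9999, limma).

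Mfn2 encodes mitofusin 2, which also tethers mitochondria to the endoplasmic reticulum. Its values were 10.85, 10.97 and 11.30 FPKM in Ctrl and 11.32, 11.15 and 10.71 FPKM in ZA. The groups covered nearly the same range, and their means with SD of 3 libraries were 11.04 ± 0.232 FPKM for Ctrl and 11.06 ± 0.315 FPKM for ZA. Its log2 fold change was 0.0024 (95% interval −0.076 to 0.081). Mfn2 mRNA was between 1.43 and 1.58 times as abundant as Mfn1 mRNA per length in every library, with mean ratios of 1.51 ± 0.0572 for Ctrl and 1.52 ± 0.0769 for ZA (SD, n = 3 each).

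Opa1 encodes the inner membrane fusion GTPase, whose long and short protein forms arise by splicing and cleavage and are not separated in a gene-level table. Opa1 stood at 9.38, 8.86 and 9.46 FPKM in Ctrl and at 9.31, 9.23 and 9.23 FPKM in ZA. All ZA libraries fell between the Ctrl values. For Opa1 the log2 fold change was 0.0034 (95% interval −0.077 to 0.084). Relative to the 2 mitofusins summed, Opa1 stood at a ratio of 0.504 ± 0.0166 for Ctrl and 0.504 ± 0.00404 for ZA (SD, n = 3 each).

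Of the fission genes, Dnm1l encodes DRP1, the GTPase that constricts the organelle. It was measured at 13.2, 12.8 and 12.6 FPKM in Ctrl and at 12.7, 13.0 and 12.9 FPKM in ZA. The ZA libraries again lay within the range of Ctrl. The difference between the groups was a log2 fold change of −0.0019 (95% interval −0.073 to 0.069), so that a change of Dnm1l mRNA beyond 0.951-fold or 1.05-fold lies outside the interval. The ratio of Dnm1l to Opa1, which sets a fission gene against a fusion gene within each library, was 1.40 ± 0.058 for Ctrl and 1.39 ± 0.0214 for ZA (SD, n = 3 each).

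Fis1, Mff, Mief1 and Mief2 encode outer membrane proteins that bind DRP1. Fis1, a small tail-anchored protein, had the highest mRNA level of the 10 genes and lay at the 91.9th percentile of tested genes. Fis1 reached 69.8, 72.2 and 71.1 FPKM in Ctrl and 64.7, 75.5 and 70.8 FPKM in ZA. ZA 1 was the lowest and ZA 2 the highest of all 6 libraries, and the coefficient of variation (CV, SD divided by the mean) was 7.71% in ZA, beside 1.71% in Ctrl and 1.76% from counting error alone. Between groups, Fis1 had a log2 fold change of −0.016 (95% interval −0.13 to 0.099), and of 0.042 without ZA 1 (adjusted p = 0.637, limma, with 0.628 to 0.987 over the alternatives).

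Mff encodes mitochondrial fission factor, regarded as a main receptor of DRP1. Its values were 29.12, 29.42 and 29.99 FPKM in Ctrl and 29.25, 29.78 and 27.67 FPKM in ZA. ZA 3 was the lowest library, and ZA 1 and ZA 2 lay among the Ctrl values. Mff had a log2 fold change of −0.030 (95% interval −0.11 to 0.046, adjusted p = 0.759, limma), and 0.00046 without ZA 3.

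Mief1 and Mief2 encode MiD51 and MiD49, adaptors that gather DRP1 at the outer membrane. Mief1 was measured at 4.75, 4.36 and 4.74 FPKM in Ctrl and at 4.80, 4.85 and 5.08 FPKM in ZA. Every ZA library was above every Ctrl library, although ZA 1 exceeded Ctrl 1 by little. The log2 fold change of Mief1 was 0.074 (SE 0.044, 95% interval −0.028 to 0.18, adjusted p = 0.537, limma), and 0.041 without Ctrl 2.

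Mief2 had the fewest fragments of the 10 genes, between 276 and 357 in a library. Its level was 2.63, 3.21 and 3.31 FPKM in Ctrl and 3.13, 3.40 and 3.08 FPKM in ZA. Ctrl 1 stood below the other 5 libraries, which overlapped. Mief2 had a log2 fold change of 0.056 (95% interval −0.11 to 0.22), and −0.022 without Ctrl 1. On a pseudocount of 0.1 FPKM the interval of Mief2 ran from 0.909-fold to 1.22-fold.

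Of the summed FPKM of the 4 adaptor genes, Fis1 made up 65.6 ± 0.489% for Ctrl and 65.5 ± 1.70% for ZA, and Mff made up 27.3 ± 0.291% and 27.0 ± 1.52% (SD, n = 3 each). Mief1 contributed 4.27 ± 0.246% for Ctrl and 4.58 ± 0.271% for ZA, and Mief2 contributed 2.82 ± 0.303% and 2.98 ± 0.0927% (SD, n = 3 each). The composition of this mRNA pool was thus led by Fis1 and Mff in both groups, and each share differed between groups by less than 2 SD of the more variable group. Shares of mRNA per length are not shares of protein.

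Oma1 and Yme1l1 encode inner membrane metalloproteases that cleave OPA1, OMA1 under stress or loss of membrane potential and YME1L constitutively. Oma1 stood at 1.77, 1.78 and 2.09 FPKM in Ctrl and at 2.02, 2.02 and 2.06 FPKM in ZA. Ctrl 3 was the highest of all libraries and Ctrl 1 and Ctrl 2 were the lowest, so that the groups overlapped through a single Ctrl library. The log2 fold change was 0.078 (SE 0.056, 95% interval −0.050 to 0.21, adjusted p = 0.609, limma). Its log2 fold change was 0.13 without Ctrl 3 and 0.051 without Ctrl 1. Without Ctrl 3 the unadjusted p of Oma1 was 0.0383 and the adjusted p was 0.378, the lowest of 0.378 to 0.830 over the alternatives (limma). On a pseudocount of 0.1 FPKM the interval of Oma1 ran from 0.951-fold to 1.23-fold.

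Yme1l1 was measured at 19.4, 19.1 and 18.9 FPKM in Ctrl and at 19.5, 19.7 and 19.7 FPKM in ZA. Every ZA library was above every Ctrl library, and the means were 19.1 ± 0.271 FPKM for Ctrl and 19.6 ± 0.139 FPKM for ZA (SD, n = 3 each). The log2 fold change was 0.036 (SE 0.027, 95% interval −0.025 to 0.098, adjusted p = 0.616, limma). Groups that do not overlap were found for 2 of the 10 genes, Mief1 and Yme1l1, and for 18.1% of all tested genes, so that this count lay near the background. The ratio of Yme1l1 to Oma1 was 10.3 ± 1.06 for Ctrl and 9.65 ± 0.0798 for ZA (SD, n = 3 each), on the gene lengths behind the deposited values.

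**Figure D2:**
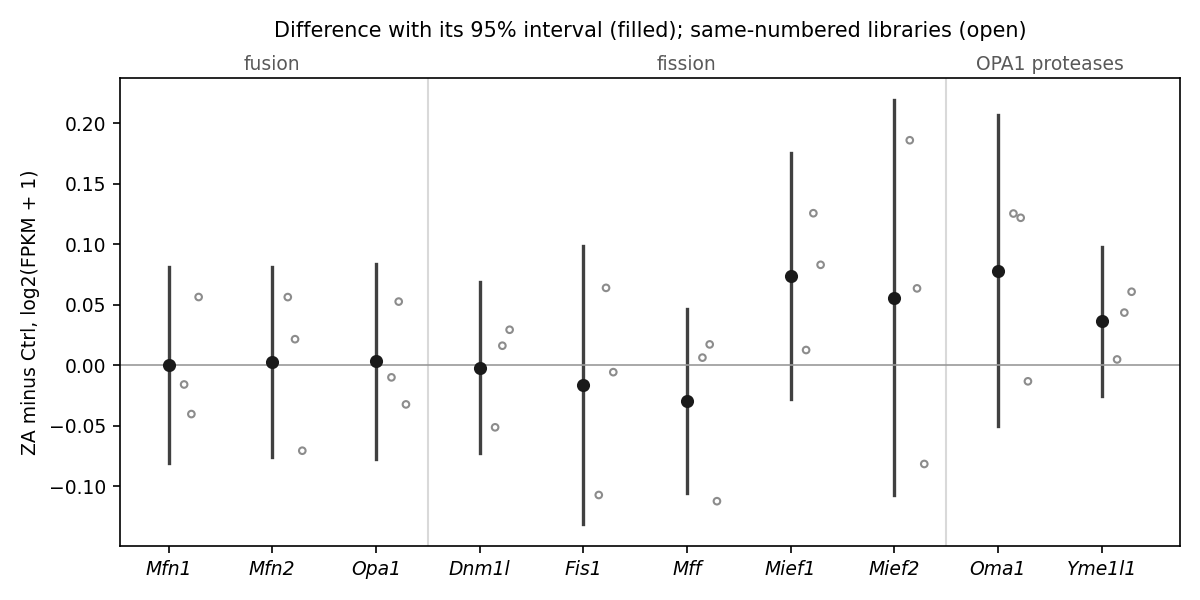
Difference of ZA from Ctrl in log2(FPKM + 1) for each gene, with the 95% interval from limma (filled points and lines) and the differences between libraries of the same replicate number (open points, 1 to 3 from left to right). All 10 intervals cross 0, and 19 of the 30 open points, from libraries that were not centred, lie above 0.

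The differences between same-numbered libraries did not share a direction. With replicate 1, 6 of the 10 genes were higher in ZA, with replicate 2, 9 were, and with replicate 3, 4 were. These counts come from libraries that were not centred, and the same shares over all tested genes were not taken. Mief1 and Yme1l1 were higher in ZA with each of the 3 numbers.

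**Figure D3:**
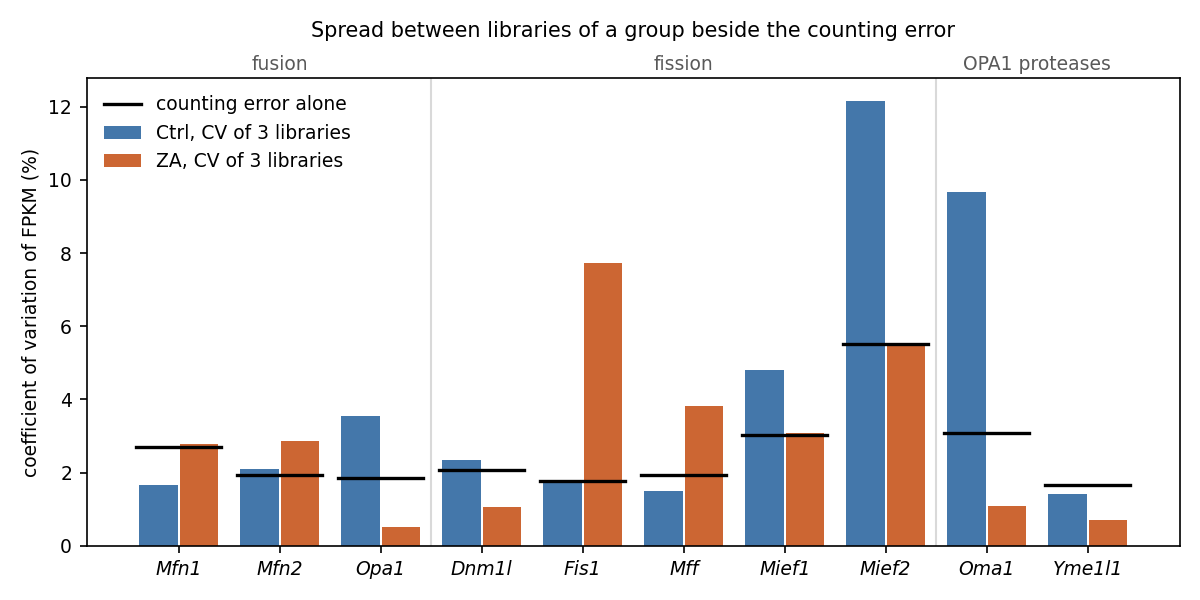
Coefficient of variation of FPKM between the 3 libraries of Ctrl (blue bars) and ZA (orange bars) for each gene, in percent, with the value expected from counting error alone as a black line. Of the 20 bars, 12 stand above the line, and the same share over all tested genes was not taken. The highest bars are Mief2 and Oma1 in Ctrl and Fis1 in ZA, with 12.2%, 9.66% and 7.71%.

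The observed spread between libraries lay on both sides of the counting error. Counting error alone, taken from the mean number of fragments, gave a CV between 1.65% for Yme1l1 and 5.52% for Mief2. The observed CV of Opa1 was 3.54% in Ctrl and 0.4996% in ZA, and that of Dnm1l was 2.34% and 1.05%, around their counting errors of 1.86% and 2.06%. Oma1 had a CV of 9.66% in Ctrl and 1.07% in ZA against a counting error of 3.08%. The median standard error of the 10 log2 fold changes was 0.035, beside 0.043 for all tested genes. With 3 libraries a CV is itself imprecise, and differences in spread between groups were not tested.

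The order of levels per length was the same by group means in Ctrl and in ZA. From highest to lowest it ran Fis1, Mff, Yme1l1, Dnm1l, Mfn2, Opa1, Mfn1, Mief1, Mief2 and Oma1. The ranges over the 6 libraries did not overlap between any neighbours in this order. The closest neighbours were Dnm1l and Mfn2, with a ratio of at least 1.11 in every library. Against all tested genes, whose median level was 9.04 FPKM, Opa1 lay at the 50.7th percentile and Oma1 at the 10.8th.

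The order depended on the gene length used, most for Oma1. The length behind each deposited FPKM, recovered from the values, was 12926 bases for Oma1, while the longest coding transcript of Oma1 in the GENCODE vM21 annotation has 1915 bases, a ratio of 6.75. For the other 9 genes this ratio was between 0.971 and 1.33. In fragments, Oma1 with a mean of 1054 in a library was close to Mief1 with 1093. If all its fragments came from the longest GENCODE coding transcript, Oma1 would have a mean of 13.2 FPKM. It would then rank 6th instead of 10th, between Dnm1l with 14.2 and Opa1 with 11.1 FPKM. On the same lengths Mfn2, with 14.7 FPKM, would pass Dnm1l, and the mean of Yme1l1 would be 1.43 times that of Oma1. Where in the 12926 bases the Oma1 fragments lay is not known, so 13.2 FPKM is an upper limit for this transcript. A gene's length is the same in all libraries, so the fold change in FPKM is not affected, while the pseudocount weighs more on a low FPKM.

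**Figure D4:**
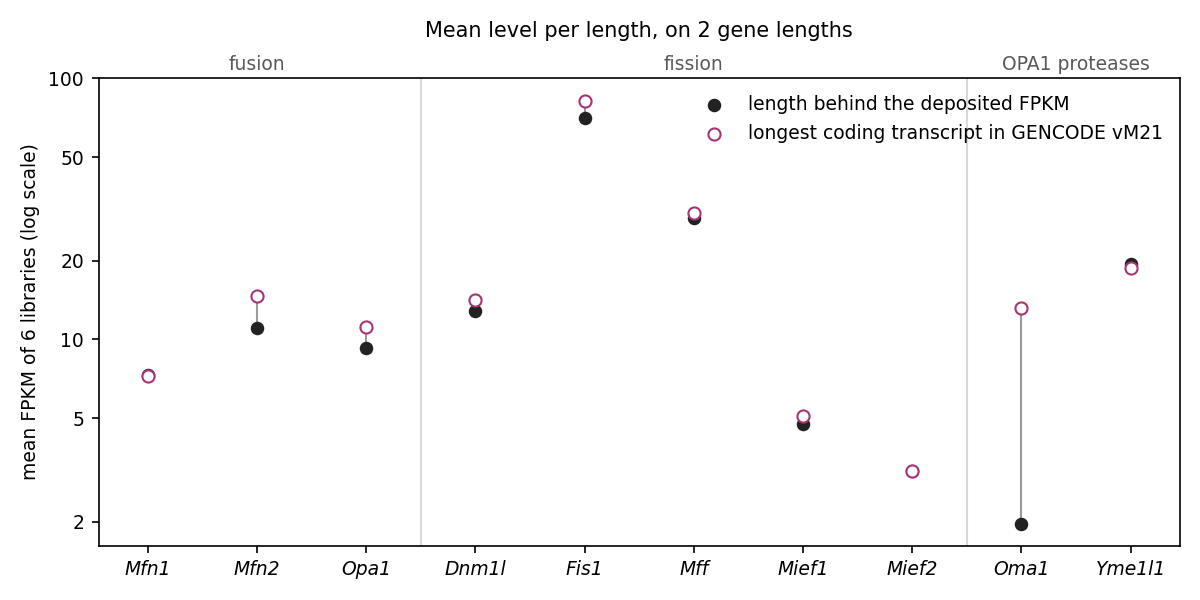
Mean FPKM over the 6 libraries (log scale) of each gene on the length behind the deposited value (filled) and on the longest coding transcript in GENCODE vM21 (open). Oma1 moves from 1.96 to at most 13.2 FPKM, reached if all its fragments came from that transcript. The other genes move by at most 1.33 times.

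Overlap with other genes touched 3 of the 10 in the GENCODE models. In GENCODE vM21 the exons of Dnm1l and Mff overlap those of Gm49521 and C430014B12Rik on the opposite strand, and the exons of Mief1 overlap those of AC140267.1 on the same strand. Whether strand was used in counting is not given in the sources used here. Stretches of 100 bases shared with transcripts of another gene made up 2.17% of those of Dnm1l, 0.918% of those of Mff, 1.34% of those of Mief1 and 0 of the other 7 genes. For Oma1 the GENCODE exons hold 2144 bases, while 12926 bases lie behind its deposited value. The part of Oma1 outside these exons was not checked for overlap. C430014B12Rik held between 0 and 10 fragments in a library, and Gm49521 and AC140267.1 had no row under these symbols.

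The promoters of the 10 genes were compared for letters bound by NRF1, nuclear respiratory factor 1, an activator of many nuclear genes for mitochondrial proteins. RefSeq windows from 250 bases before to 50 bases after the transcription start (GRCm38.p6) matched all 10 genes, with 15 windows. The letters searched on both strands, GCGCA and GCGC with any base between them, were found in 2 of the 15 windows, of Opa1 and Oma1, in 11% of the windows of tested genes and in 4.6% of all 32851 windows. This count lay near the share of tested genes. The 120 bases before the start are shown for Opa1 and Oma1, the genes with a match, which is in capitals. The sequences are those of the plus strand at chr16:29579214-29579333 for Opa1 and chr4:103313726-103313845 for Oma1.
Opa1: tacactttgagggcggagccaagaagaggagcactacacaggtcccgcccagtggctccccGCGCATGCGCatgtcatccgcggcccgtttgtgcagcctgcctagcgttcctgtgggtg
Oma1: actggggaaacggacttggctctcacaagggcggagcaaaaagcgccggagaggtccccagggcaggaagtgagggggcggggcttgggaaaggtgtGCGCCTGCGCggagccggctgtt
The match begins 59 bases before the start in Opa1 and 23 bases before it in Oma1. In Oma1 the letters searched are read on the strand opposite to the one shown. It is a description of letters, and binding was not measured. The log2 fold changes of both genes are given above, 0.0034 for Opa1 and 0.078 for Oma1, with intervals that hold 0. The letters CCGGAAG, a core bound by ETS factors, were found on either strand in 6 of the 15 windows, of Mfn1, Dnm1l, Fis1, Mief1 and Yme1l1, and in 19.6% of the windows of tested genes.

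The 10 genes work with partners, and 57 of these were read in 7 lists. All 57 had a row, and 53 had a mean of at least 1 FPKM and were tested. None of the 53 had an adjusted p-value under 0.05 (limma), and at an unadjusted p under 0.05 there was 1 that was higher in ZA and 0 that were lower, where the shares of all tested genes were 7.5% and 4.85%. The number lower was between 0 and 3 over the alternatives, and the number higher was 1 or 2. The means of 27 were higher in ZA and those of 26 were lower, against 23 and 30 after median centring of the libraries. Their median log2 fold change was 0.0032. Groups did not overlap for 6 of the 53, a share of 11.3% beside 18.1% of all tested genes.

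The partner gene higher in ZA at an unadjusted p under 0.05 was Pgam5. It belongs to the list of 13 genes for enzymes that modify DRP1 and for their subunits and anchors. PGAM5 is a mitochondrial phosphatase that can remove phosphate from DRP1. Pgam5 was measured at 11.6, 11.4 and 11.5 FPKM in Ctrl and at 12.5, 12.5 and 13.0 FPKM in ZA, with every ZA library above every Ctrl library. The log2 fold change was 0.13 (SE 0.030, 95% interval 0.062 to 0.20, unadjusted p = 0.00238, adjusted p = 0.131, limma), so that it did not pass the adjusted threshold. Prkaca, the catalytic subunit of protein kinase A, which phosphorylates DRP1, had the next smallest p in that list with a log2 fold change of 0.043 and an adjusted p of 0.544.

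The 3 tested cofactors of outer membrane fusion all had lower means in ZA, with a median log2 fold change of −0.064. Of these, 0 passed either threshold in the main fit. Mtch2, an outer membrane protein insertase, stood at 25.3, 25.6 and 24.7 FPKM in Ctrl and at 23.7, 24.6 and 23.9 FPKM in ZA. All ZA values of Mtch2 were below all Ctrl values (log2 fold change −0.064, 95% interval −0.13 to 0.0013, adjusted p = 0.413, limma). Its unadjusted p was under 0.05 without a filter, after median centring, after quantile normalization, without Ctrl 3 and without ZA 2 (limma). Under the remaining alternatives it was not. Miga2 had a log2 fold change of −0.085 with overlapping groups. Miga1 and Pld6 had means under 1 FPKM and were not tested.

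Among the fission accessories, 7 of 9 genes were tested, 5 with a higher and 2 with a lower mean in ZA and a median log2 fold change of 0.029. Inf2, a formin that builds actin at fission sites, was measured at 7.08, 6.52 and 6.28 FPKM in Ctrl and at 6.43, 5.85 and 5.65 FPKM in ZA. The groups overlapped, since ZA 1 was above Ctrl 3. Its log2 fold change was −0.13 (95% interval −0.26 to 0.00052, adjusted p = 0.405, limma). With the replicate number as a block, Inf2 had an unadjusted p of 0.0105 and an adjusted p of 0.166 (limma). Its unadjusted p was also under 0.05 after median centring, after quantile normalization and with a filter at a mean of 5 FPKM (limma). The same held with voom on the recovered fragments, without Ctrl 3 and without ZA 1. Under the remaining alternatives it was not under 0.05. Spire1, an actin nucleator that works with Inf2, had groups that did not overlap and a log2 fold change of 0.060 (adjusted p = 0.631, limma).

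In the list of inner membrane proteases and scaffolds, which also holds Dele1, 3 of 8 genes had a higher and 5 a lower mean in ZA. Their median log2 fold change was −0.0092. Dele1, whose product is cleaved by OMA1 to report mitochondrial stress, had 9.26, 8.87 and 9.52 FPKM in Ctrl and 10.6, 9.59 and 9.61 FPKM in ZA. All ZA libraries were above all Ctrl libraries (log2 fold change 0.098, 95% interval −0.0090 to 0.20, adjusted p = 0.449, limma). Parl, a rhomboid protease of the inner membrane, was lower in every ZA library than in every Ctrl library, with a log2 fold change of −0.050 (adjusted p = 0.531, limma).

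The other 3 lists, with 22 tested genes, held no gene with an unadjusted p under 0.05 (7.5% of all tested genes were higher and 4.85% lower) and no gene whose groups did not overlap (18.1% of all). The 11 genes of cristae organisation, which shape the inner membrane with OPA1, had a median log2 fold change of −0.0063, with Micos10 at −0.067 and Chchd3 at 0.049. The 6 genes of mitochondrial transport along microtubules had a median of −0.0058, with Trak2 at 0.062 and Rhot1 at 0.034. The 5 genes of cardiolipin synthesis, the lipid that OPA1 and DRP1 bind, had a median of 0.046, with Pgs1 at 0.056 and Crls1 at 0.067.

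**Figure D5:**
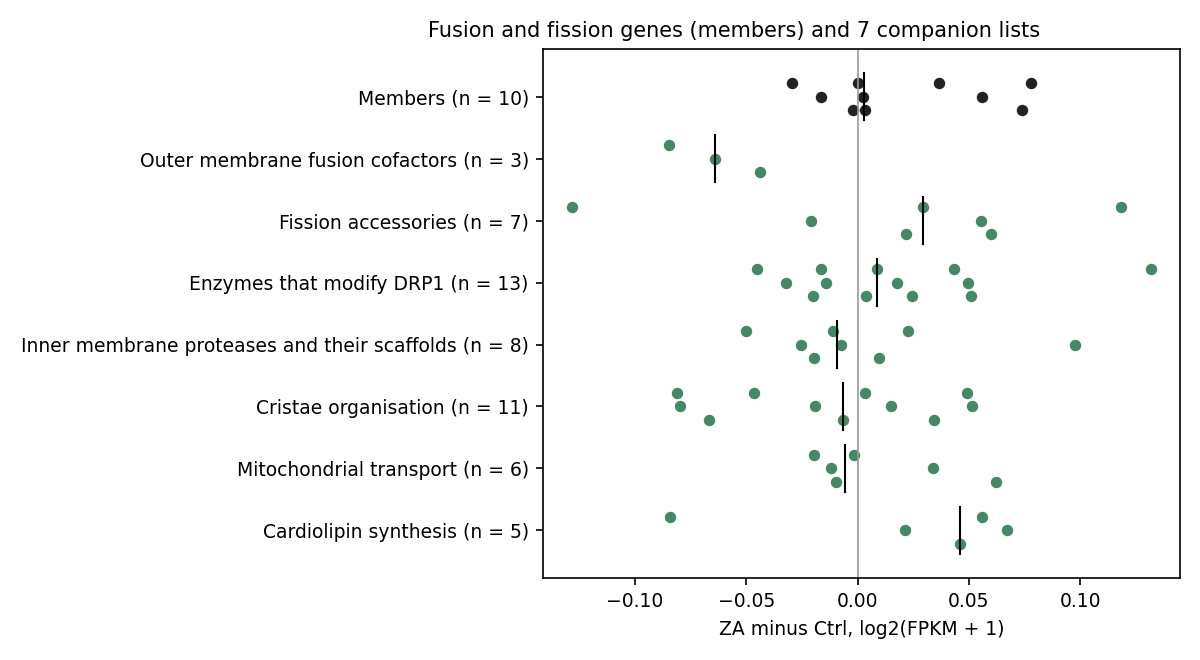
Difference of ZA from Ctrl in log2(FPKM + 1) for the 10 fusion and fission genes (black, members) and the tested genes of the 7 lists of partners (green), with the median of each list as a vertical line. Pgam5 lies farthest to the right at 0.13 and Inf2 farthest to the left at −0.13.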

How the data were processed

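RNA of BMDMs was sequenced as 6 libraries with 150 bp paired-end reads. The paper names a VAHTS library kit and the labels also a SMARTER kit. The authors deposited FPKM values per gene and library. The submitters' processing notes name the build mm9, and the aligner, counter and annotation are not given in the sources used here.

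In 11 of 35434 deposited rows the columns were separate, and in the others symbol and values ran together. Rows were cut where each value gave whole fragments for a single gene length and the library totals. This gave 35421 rows, left out 13 and restored the 11 intact rows identically. Lengths up to 250000 bases were tried, and 99.7% of the fragments lay in restored rows.

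The 9800 genes whose mean reached 1 FPKM entered a two-sided test in limma 3.58.1 (R 4.3.3; lmFit, then eBayes, trend included) on log2(FPKM + 1), and p-values were adjusted by Benjamini-Hochberg over all of them. The fit was tested on simulated data in which 200 genes changed by a log2 fold change of 1. Of these it called 191, with 7 unchanged genes, and it called 0 in simulated data without changes. Smaller changes, such as those of the 10 members, were not simulated. Named genes were all 10 members and, of each list, genes with an adjusted p under 0.05 and the 2 with the smallest p. Members and lists were chosen with earlier results of these data known. Libraries of a group were not duplicates (chi-square of 3.52 to 9.73 per gene). Python 3.11.15, NumPy 2.4.6, pandas 2.3.3 and Matplotlib 3.10.9 were used. Alternatives were another pseudocount, 2 other filters, 2 other scalings, a prior without a trend, the replicate number as a block, voom on the recovered fragments, and leaving out each library.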

Additional observations from a re-analysis of the deposited data

How the results depend on the processing

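Under all 14 alternatives, 0 of the fusion and fission genes and 0 of the partner genes that entered the test had an adjusted p-value under 0.05 (limma), and the lowest adjusted p of a fusion or fission gene was 0.378. Leaving out a library moved the number higher in ZA at an unadjusted p under 0.05 between 0 and 1, which was Oma1 without Ctrl 3, and the median log2 fold change between 0.00021 and 0.024. Of 137 single values, 20 changed sign, none beyond 0.042, and the cause was not tested. Centring each library on its median gave −0.012 for Mfn1, −0.0099 for Mfn2 and −0.0089 for Opa1, and quantile normalization gave −0.014, −0.0088 and −0.0054. Leaving out a library gave a range for Mfn1 of −0.017 to 0.018, for Mfn2 of −0.013 to 0.024, for Opa1 of −0.023 to 0.020, for Dnm1l of −0.016 to 0.015, for Fis1 of −0.068 to 0.042, for Mff of −0.051 to 0.00046 for Mief2 of −0.022 to 0.10, for Mief1 of 0.041 to 0.091, for Oma1 of 0.051 to 0.13 and for Yme1l1 of 0.027 to 0.047. With a filter at a mean of 5 FPKM, Mief1, Mief2 and Oma1 were not tested. Genes called over all genes numbered 36, and 1 without a filter, 20 after quantile normalization, 1 with a prior without a trend, 78 with the replicate block, 132 with voom on recovered fragments, and between 0 (without ZA 2) and 25 (without ZA 1) when a library was left out. No source used here says that same-numbered libraries belong together, so the main fit did not take the numbers as pairs. Deviations of same-numbered libraries had correlations across genes of 0.284, 0.0393 and 0.280, and whether they share a replicate effect was not tested. The replicate block gave 0 calls among the 10 genes and left their median at 0.0029. Among the partners it took the number lower in ZA at an unadjusted p under 0.05 from 0 to 1, which was Inf2. Inf2 was also lower at that threshold under other alternatives, including both other scalings, voom and leaving out Ctrl 3 or ZA 1. Depth limited Mief2 most, with 276 to 357 fragments in a library.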
